A study of Homo sapiens with 6 samples.

Results

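The genes described here encode 9 chemoattractant receptors of myeloid cells, CXCR4, CCR1, CCR2, CX3CR1, C5AR1, FPR1, FPR2, GPR84 and CMKLR1. They were chosen by name and matched to the count table by Ensembl identifier. Of these, 8 had a row among the 18798 genes of the table and 7 had enough counts to be tested. CMKLR1, the receptor for chemerin, had no row and was not analysed here, and no gene listed has fewer than 10 counts summed over the libraries. RNA was sequenced from U937, an established human line of monocytic origin, in 3 ΔNSPs clones and 3 Control lines, all transduced with plasmids and selected in geneticin at 500 µg/ml. In the ΔNSPs clones CTSG, ELANE and PRTN3, the genes of cathepsin G, neutrophil elastase and proteinase 3, were depleted together; the study's design text calls them independent. The Control lines carried control plasmids. Each ΔNSPs library is a single clone, so a difference between clones and lines includes what sets one clone apart from another, and p-values measure the spread between these cultures.

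Chemoattractant receptors are seven-helix membrane proteins that couple mostly to G proteins of the Gi type and steer leukocytes along gradients of chemokines, complement fragments, bacterial peptides or lipids. Activated receptors release G protein beta and gamma subunits, which switch on phosphoinositide 3-kinase gamma and phospholipase C beta, and they are then silenced by G protein-coupled receptor kinases, arrestins and RGS proteins. The 3 depleted proteases are known to cut several of these receptors and their ligands outside the cell, such as CXCR4, CXCL12 and the C5a receptor. Messenger RNA counts do not measure such cleavage.

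The libraries held 11476619 to 13782854 counts, so that 3 counts in a library lay at 0.214 to 0.26 CPM (a library's counts scaled to the same total with TMM factors). CTSG, ELANE and PRTN3 lay below the range of the Control lines in each of the 3 clones, and of these CTSG passed in edgeR. CTSG was at 45.2 to 136 CPM in the clones and at 1895 to 2752 CPM in the lines. The depletion was uneven for ELANE (41.9, 1.89 and 27.8 CPM in clones 1 to 3, 970 to 1325 CPM in the lines) and PRTN3 (0.855, 63.2 and 55.3 CPM in the clones, 147 to 539 CPM in the lines). ΔNSPs clone 1 lay nearer to the Control lines (root mean square log2 difference 0.483 to 0.532 over all tested genes) than to clones 2 and 3 (0.709 to 0.744). The Control lines differed among themselves by 0.349 to 0.484. Of 12 monocytic markers, LYZ, CD4, CD33, SPI1 and CLEC12A were well expressed, whereas CD14, CD36 and CD68, which define mature monocytes and macrophages, were at 1.14 CPM or less in every library; 81.7% of the exon bases of CD68 are shared with another gene on its strand. The summed level of the monocytic markers ran from 487 to 894 CPM in the clones and from 623 to 682 CPM in the Control lines.

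Per length, CXCR4 was by far the most abundant of these transcripts in both groups. On the TPM scale (counts divided by the union exon length of GENCODE and scaled to a common total), CXCR4 averaged 239 ± 46.2 TPM in ΔNSPs clones and 312 ± 110 TPM in Control lines (SD, n = 3 each, as throughout). In the clones the order of the other levels was GPR84 at 32.3 ± 22.4 TPM, FPR2 at 16.7 ± 4.47 TPM, CCR1 at 7.33 ± 4.25 TPM and then CX3CR1, C5AR1, CCR2 and FPR1 at 1.60 TPM or less. In the Control lines FPR2 came next after CXCR4 at 10.8 ± 2.52 TPM, followed by GPR84 at 5.15 ± 0.931 TPM and CCR1 at 4.66 ± 0.716 TPM, with CX3CR1, FPR1, C5AR1 and CCR2 at 1.22 TPM or less. In the clones, GPR84 (7.76 to 51.8 TPM), FPR2 (11.8 to 20.6 TPM) and CCR1 (3.46 to 11.9 TPM) overlapped in turn. In the Control lines the range of FPR2 (7.89 to 12.3 TPM) lay above that of GPR84 (4.08 to 5.77 TPM), but GPR84 and CCR1 (3.97 to 5.40 TPM) overlapped, as did each neighbouring pair among CX3CR1, FPR1, C5AR1 and CCR2. Of all tested genes, 94.3% had a lower mean CPM than CXCR4 and 44.2% a lower one than FPR2.

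**Figure D1:**
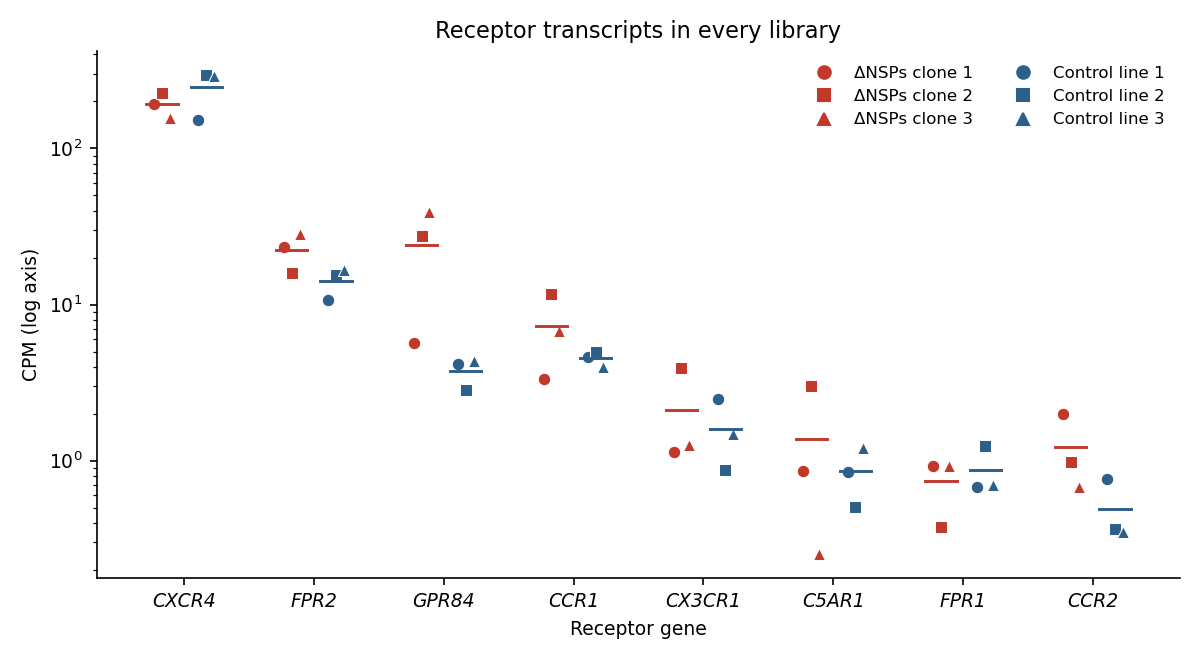
CPM on a log axis for each receptor gene in the 3 ΔNSPs clones (red, left) and the 3 Control lines (blue, right), with replicate 1 as circles, 2 as squares and 3 as triangles, and the group mean as a bar. GPR84 is the gene whose groups do not overlap, with clones 2 and 3 at 27.6 and 39.3 CPM and clone 1 at 5.63 CPM, close to the highest Control line at 4.33 CPM.

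None of the tested receptors passed in edgeR over all genes (0 of 7 at an adjusted p under 0.05), where 0.0203% of the 14797 tested genes passed, 0.00676% higher and 0.0135% lower in the clones. At an unadjusted p under 0.05 there were 2, GPR84 and FPR2, both higher in the clones, against 17.8% of all tested genes (9.23% higher). DESeq2 gave an adjusted p for 4 of them and called 1, GPR84, against 3.98% of all genes (1.91% higher and 2.07% lower). Limma voom called 0, and only 2 of all 14797 tested genes (1 higher and 1 lower). The groups did not overlap for 1 of the 7, GPR84, against 23.9% of all tested genes (12.2% higher). With so few genes, nothing about the receptors as a group is read from these counts. The fold changes had a median of 0.66 on the log2 scale over the 7 tested receptors, 5 positive and 2 negative, and 0.0023 over all tested genes.

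CXCR4 (ENSG00000121966, chromosome 2, 136114349 to 136118165 of GRCh38) is the receptor for CXCL12 that retains myeloid cells in the bone marrow. It was at 193, 227 and 157 CPM in ΔNSPs clones 1, 2 and 3 and at 151, 297 and 292 CPM in Control lines 1, 2 and 3. Control line 1 lay below all 3 clones and the other Control lines above them, so the groups overlapped. The log2 fold change was -0.36 (SE 0.26, 95% interval -0.95 to 0.23; edgeR adjusted p = 0.488). With every library in turn left out it stayed between -0.61 and -0.21, the lowest value coming without Control line 1. Around CXCR4, 14 genes of at least 8 CPM lay within 5 Mb, and their median log2 difference from the Control average was -0.07 in clones 1 and 2 but -0.59 in clone 3, which had the lowest CXCR4 level of the clones; the part of this shift in the CXCR4 value was not tested.

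The sequences before the transcription start of CXCR4 and of FPR2, the second most abundant receptor transcript in the Control lines, are shown because they differ in base composition and in the motifs they hold. They are the 250 bases upstream of the first start that RefSeq lists for each gene on GRCh38.p14, 5′ to 3′, with matches to any of 5 motifs in capitals.
CXCR4 (chr2:136118150-136118399, minus strand): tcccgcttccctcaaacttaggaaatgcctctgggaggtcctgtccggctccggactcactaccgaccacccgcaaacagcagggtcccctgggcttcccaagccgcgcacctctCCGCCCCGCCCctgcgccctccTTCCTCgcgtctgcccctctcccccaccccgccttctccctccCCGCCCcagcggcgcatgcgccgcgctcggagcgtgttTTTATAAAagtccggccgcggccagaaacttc
FPR2 (chr19:51760930-51761179, plus strand): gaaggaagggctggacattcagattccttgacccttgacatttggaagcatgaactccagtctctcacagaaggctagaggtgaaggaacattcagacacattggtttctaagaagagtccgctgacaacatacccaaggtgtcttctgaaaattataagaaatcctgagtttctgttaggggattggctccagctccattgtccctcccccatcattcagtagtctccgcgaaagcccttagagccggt
The motifs were searched on both strands and were the GC box (GGGCGG), the TATA box (TATAAA), the core of PU.1 sites (GAGGAA), AP-1 (TGANTCA) and the core of hypoxia elements (ACGTG). The CXCR4 sequence is 68.0% G and C and that of FPR2 47.6%, against a median of 58.0% over 35116 listed promoters. CXCR4 held 3 GC boxes, of which 2 overlap by a base, 1 PU.1 core and a TATA box 30 bases before the start, which overlaps its own match on the opposite strand. Of all listed promoters, 42.6% held a GC box, 23.6% a PU.1 core and 10.7% a TATA box. The FPR2 sequence held none of the 5 motifs, nor did those of CCR1 and FPR1. CCR2 held 1 AP-1 motif (in 6.57% of all promoters), CX3CR1 1 hypoxia core (18.5%) and C5AR1 2 PU.1 cores. CMKLR1, which had no row of counts, held PU.1 cores 155 and 30 bases before its start.

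The 3 other chemokine receptors lie on the short arm of chromosome 3, CCR1 and CCR2 within a cluster of such genes. CCR1 (ENSG00000163823, 46201709 to 46208396), which binds CCL3, CCL5 and CCL23, was at 3.35, 11.7 and 6.74 CPM in ΔNSPs clones 1 to 3 and at 4.60, 5.0 and 3.99 CPM in Control lines 1 to 3. Clones 2 and 3 were above every Control line and clone 1 below every one. Its log2 fold change was 0.68 (SE 0.41, 95% interval -0.28 to 1.64; edgeR adjusted p = 0.417), and without clone 2 it was 0.15.

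CCR2 (ENSG00000121807, 46353734 to 46360928), the receptor for CCL2 on classical monocytes, was close to the limit of detection. It had 28, 13 and 8 counts in clones 1 to 3 (2.00, 0.984 and 0.674 CPM) and 9, 5 and 4 counts in Control lines 1 to 3 (0.766, 0.362 and 0.347 CPM). Clone 3 lay below Control line 1, so the groups overlapped. The filter on low counts left CCR2 out of the test; with no filter its log2 fold change was 1.31 (SE 0.57; edgeR adjusted p = 0.319). CX3CR1 (ENSG00000168329, 39263494 to 39281735), the fractalkine receptor of patrolling monocytes, was at 1.14, 3.94 and 1.26 CPM in the clones and at 2.47, 0.869 and 1.47 CPM in the Control lines. Its log2 fold change of 0.41 (SE 0.59, 95% interval -0.94 to 1.76; edgeR adjusted p = 0.744) became -0.40 without clone 2, the highest library. The median log2 fold change of genes within 5 Mb was 0.049 around CCR1 and CCR2 (101 genes) and -0.045 around CX3CR1 (36 genes).

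C5AR1 (ENSG00000197405, chromosome 19, 47290023 to 47322066), the receptor for the complement fragment C5a, also had its highest level in clone 2. It had 12, 40 and 3 counts in clones 1 to 3 (0.855, 3.03 and 0.253 CPM) and 10, 7 and 14 counts in Control lines 1 to 3 (0.851, 0.507 and 1.21 CPM). Clone 3 stood at the floor of 3 counts and was the lowest of the 6 libraries. The log2 fold change was 0.71 (SE 0.78, 95% interval -1.10 to 2.51; edgeR adjusted p = 0.661) and -0.57 without clone 2. The clones spread more widely than the Control lines.

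The formyl peptide receptors lie side by side on chromosome 19, FPR1 on the minus strand and FPR2 on the plus strand. The annotated span of FPR1 (51745172 to 51804110) contains that of FPR2 (51752026 to 51770526), but they share no exon bases. FPR1 (ENSG00000171051), the high-affinity receptor for bacterial formyl peptides, had 13, 5 and 11 counts in clones 1 to 3 (0.927, 0.378 and 0.926 CPM) and 8, 17 and 8 counts in Control lines 1 to 3 (0.681, 1.23 and 0.693 CPM). The groups overlapped, and the log2 fold change was -0.24 (SE 0.50, 95% interval -1.39 to 0.91; edgeR adjusted p = 0.832). It turned to 0.08 without clone 2 and to 0.11 without Control line 2.

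FPR2 (ENSG00000171049), which binds formyl peptides, serum amyloid A and annexin A1, was at 23.5, 15.8 and 28.2 CPM in ΔNSPs clones 1, 2 and 3 and at 10.6, 15.4 and 16.7 CPM in Control lines 1, 2 and 3. Clones 1 and 3 were above every Control line, while clone 2 lay between lines 2 and 3. The log2 fold change was 0.66 (SE 0.25, 95% interval 0.080 to 1.24), with an unadjusted p of 0.0305 and an edgeR adjusted p of 0.242. DESeq2 gave an adjusted p of 0.137 and limma voom 0.199. For the 149 genes of at least 8 CPM within 5 Mb the median log2 fold change was -0.10, and by clone it was 0.045, -0.23 and -0.22 for clones 1, 2 and 3.

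GPR84 (ENSG00000139572, chromosome 12, 54362445 to 54364487), a receptor for medium-chain fatty acids that myeloid cells induce upon inflammatory stimulation, differed most between the groups. It was at 5.63, 27.6 and 39.3 CPM in ΔNSPs clones 1, 2 and 3, on 79, 364 and 466 counts. In Control lines 1, 2 and 3 it was at 4.17, 2.83 and 4.33 CPM, on 49, 39 and 50 counts. All 3 clones lay above every Control line, clone 1 by a small margin and clones 2 and 3 by a wide one. The mean was 24.1 ± 17.1 CPM in the clones against 3.78 ± 0.827 CPM in the Control lines, a log2 fold change of 2.68 (SE 0.62, 95% interval 1.24 to 4.11), or 6.39-fold. GPR84 passed in DESeq2 (log2 fold change 2.67, adjusted p = 0.0206). It missed the threshold in edgeR (adjusted p = 0.171) and in limma voom (adjusted p = 0.0861). Without clone 1 it passed in edgeR at a log2 fold change of 3.14 (adjusted p = 0.00369), in a fit that called 6.17% of 15050 genes (3.04% higher and 3.13% lower). Leaving out any other single library gave an edgeR adjusted p of 0.199 to 0.532. For the 131 genes of at least 8 CPM within 5 Mb the median log2 fold change was 0.014.

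**Figure D2:**
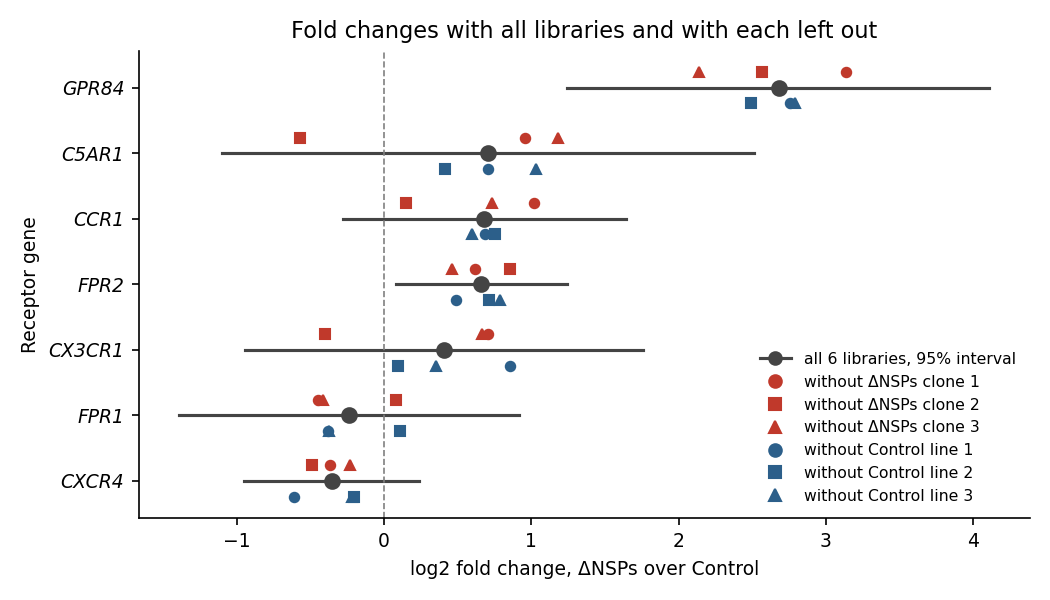
Log2 fold change of ΔNSPs over Control for the 7 tested receptors, with all 6 libraries (dark points, lines give the 95% interval) and with each library left out (red above for ΔNSPs clones, blue below for Control lines; circle, square and triangle for replicates 1, 2 and 3). GPR84 stays between 2.14 and 3.14, while CX3CR1, C5AR1 and FPR1 cross 0 without ΔNSPs clone 2, and FPR1 also without Control line 2.

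The library with the highest level differed between receptors. Clone 2 had the highest CCR1, CX3CR1 and C5AR1 levels of all 6 libraries and the lowest FPR1 level. Clone 3 had the highest GPR84 and FPR2 levels and the lowest C5AR1 level. Clone 1 had the highest CCR2 level and the lowest CCR1 level. Over the 6 libraries, the log2 CPM of GPR84 and CCR1 had a Pearson correlation of 0.753, that of FPR2 and GPR84 of 0.539 and that of CXCR4 and GPR84 of -0.418. CX3CR1 had one of 0.769 with C5AR1, 0.66 with CCR1 and -0.956 with FPR1, and C5AR1 one of -0.856 with FPR1; CX3CR1, C5AR1 and FPR1 are all on few counts. These are descriptions over 6 points that share their libraries, and carry no test.

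**Figure D3:**
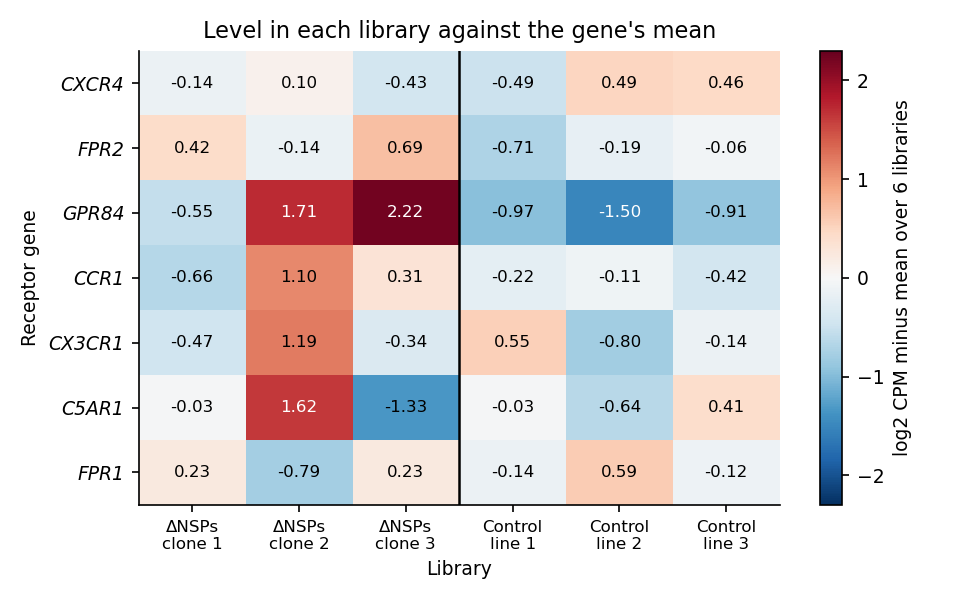
Log2 CPM of the 7 tested receptors in each library minus the gene's mean over the 6 libraries, red above and blue below the mean, with ΔNSPs clones left of the line and Control lines right. GPR84 reaches 1.71 and 2.22 in ΔNSPs clones 2 and 3, and the highest value of CCR1, CX3CR1 and C5AR1 is in clone 2 (1.10, 1.19 and 1.62).

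Over 9336 other protein-coding genes averaging 8 CPM or more, those most like GPR84 over the 6 libraries were PRR33 (Pearson r = 0.998) and CPXM1 (0.997). PRR33 was at 15.5, 49.2 and 70.2 CPM in clones 1 to 3 and at 13.9, 10.4 and 14.0 CPM in Control lines 1 to 3. Those most like FPR2 were SERPINB2, which encodes the inhibitor of plasminogen activators PAI-2 (0.974), and CCDC150 (0.970). SERPINB2 was at 77.6, 67.7 and 88.2 CPM in the clones and at 45.4, 62.7 and 65.2 CPM in the Control lines. CXCR4 was most like TNFAIP2, a gene induced by tumour necrosis factor (0.987), and WDR45B (0.982). TNFAIP2 was at 56.5, 69.9 and 52.8 CPM in the clones and at 45.7, 87.2 and 85.8 CPM in the Control lines, with line 1 the lowest of the 6 as for CXCR4. CCR1 was most like RPE (0.994) and ZFAND6 (0.992), CX3CR1 like IGF1R (0.991) and CD320 (0.985), C5AR1 like ATP6V1G1 (0.981) and ARHGAP35 (0.977), and FPR1 like PMAIP1 (0.997) and ABRAXAS2 (0.985). Each receptor's 2 genes are the highest of 9336 or 9337 correlations over 6 libraries, a search that by itself favours high values. FPR1, on only 5 to 17 counts a library, reached 0.997. The matches of FPR1, C5AR1 and CX3CR1 rest on few counts, and no likeness was tested.

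Of 19 genes for ligands of these receptors, 9 had a row, 6 were tested and 1 rose in edgeR, CCL2; DESeq2 called 1 higher and 1 lower, against 1.91% and 2.07% of all genes. CCL2, the main ligand of CCR2, was at 55.3, 138 and 148 CPM in ΔNSPs clones and at 7.57, 10.1 and 8.84 CPM in Control lines (log2 fold change 3.68, SE 0.37; edgeR adjusted p = 0.0443). Its call in edgeR was lost when any single library other than clone 1 was left out; DESeq2 and limma voom called it as well. The other ligands are named with their values already known. C5, the precursor of C5a, was at 5.42, 3.56 and 5.98 CPM in the clones and at 10.6, 11.7 and 8.58 CPM in the Control lines, and fell in DESeq2 (log2 fold change -1.06, adjusted p = 0.0141). The edgeR value was -1.05 (SE 0.25; adjusted p = 0.171). CCL5, a ligand of CCR1, was the most abundant at 144 ± 40.0 CPM in the clones against 200.2 ± 21.9 CPM in the Control lines (edgeR adjusted p = 0.256). ANXA1, the annexin A1 ligand of FPR2, was at 62.1 ± 15.4 CPM against 58.9 ± 15.8 CPM in the Control lines (edgeR adjusted p = 0.891). CCL23, another CCR1 ligand and too low for the test, had 0.356, 7.64 and 1.43 CPM in clones 1, 2 and 3 and 0.347 CPM at most in the Control lines, so that CCR1 and this ligand both peaked in clone 2. MIF, which also binds CXCR4, had 6.28 ± 0.767 CPM in the clones and 10.4 ± 2.76 CPM in the Control lines. Of its exon bases, 32.2% are shared on its own strand and 61.9% on the opposite strand, so its level is uncertain. CXCL12, CX3CL1 and RARRES2, which encode the ligands of CXCR4, CX3CR1 and CMKLR1, had no row. The 6 tested ligands had a median log2 fold change of -0.49, and at an unadjusted p under 0.05 the list held 1 higher and 4 lower genes, against 9.23% and 8.6% of all tested genes.

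Of 32 other chemoattractant receptors, 20 had a row and 14 were tested. In edgeR 0 passed. At an unadjusted p under 0.05, 6 were higher and 1 was lower, against 9.23% and 8.6% of all tested genes. Among the 6 was CXCR5, whose level is uncertain because 88.6% of its exon bases are shared with a gene on the opposite strand. DESeq2 called 1 higher, against 1.91% of all genes. Limma voom called 0, against 2 of all 14797 tested genes, and the median log2 fold change was 0.31. GPR183, the oxysterol receptor EBI2 that positions leukocytes in lymphoid tissue, was at 24.6, 37.1 and 32.0 CPM in ΔNSPs clones and at 13.5, 17.1 and 17.6 CPM in Control lines. It rose in DESeq2 (log2 fold change 0.95, adjusted p = 0.0017) and missed the threshold in edgeR (0.96, SE 0.19, adjusted p = 0.16). The groups did not overlap for 5 of the 14 on the higher side, GPR183 among them, and for 1 on the lower. Of all tested genes, 12.2% and 11.7% did not overlap. The decoy receptor ACKR2, which degrades inflammatory CC chemokines, was at 2.12 ± 0.703 CPM in the clones against 0.930 ± 0.202 CPM in the Control lines (edgeR adjusted p = 0.205). Of its exon bases, 9.79% are shared with other genes on its strand and 15.4% with genes on the opposite strand. The sphingosine 1-phosphate receptor gene S1PR4 was at 59.6 ± 14.2 CPM against 41.5 ± 7.79 CPM in the Control lines (edgeR adjusted p = 0.237). LTB4R, the leukotriene B4 receptor, had the highest CPM of these, while S1PR4 was higher per length (98.5 TPM in the clones and 69.7 TPM in the lines, against 52.7 and 44.9 TPM for LTB4R). It was at 85.3 ± 5.30 CPM against 71.5 ± 5.14 CPM in the Control lines (edgeR adjusted p = 0.263), and 7.95% of its exon bases are shared with the neighbouring LTB4R2.

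The signalling genes downstream of the receptors came next. Of 23 G protein and phosphoinositide 3-kinase gamma genes, 22 were tested and 0 passed in edgeR. There was 1 higher call by DESeq2 (1.91% of all genes) and 0 by limma voom (2 of all 14797 tested genes), with a median log2 fold change of 0.12. At an unadjusted p under 0.05 the list held 3 higher and 3 lower genes, against 9.23% and 8.6% of all tested genes. GNG2, a G protein gamma subunit, was that call, at 34.3, 39.5 and 54.1 CPM in ΔNSPs clones and at 19.3, 26.8 and 24.3 CPM in Control lines (DESeq2 log2 fold change 0.86, adjusted p = 0.00748; edgeR adjusted p = 0.171), and 7.51% of its exon bases are shared with the opposite strand. GNA15, an alpha subunit of the Gq family found in blood cells, was at 30.8 ± 3.98 CPM in the clones against 41.6 ± 1.94 CPM in the Control lines (edgeR adjusted p = 0.181). PIK3R5, the p101 regulator of phosphoinositide 3-kinase gamma, was at 30.8 ± 8.54 CPM against 19.7 ± 2.20 CPM in the Control lines (edgeR adjusted p = 0.2). GNAI2, the main Gi alpha subunit of leukocytes and the gene of the list with the highest mean CPM over the 6 libraries, though not per length, was at 571 ± 84.9 CPM against 508 ± 27.2 CPM in the Control lines (edgeR adjusted p = 0.512).

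Of 17 desensitisation and trafficking genes, 16 were tested, with a median log2 fold change of 0.07. In edgeR and limma voom 0 passed, against 3 and 2 of all 14797 tested genes. At an unadjusted p under 0.05, 5 were higher and 0 lower, against 9.23% and 8.6% of all tested genes. DESeq2 called 4, all higher, against 1.91% of all genes. RGS19, which speeds the inactivation of Gi subunits, was at 66.4, 122 and 126 CPM in ΔNSPs clones and at 62.0, 47.1 and 49.0 CPM in Control lines (DESeq2 log2 fold change 0.99, adjusted p = 0.00495; edgeR adjusted p = 0.171). As with GPR84, clone 1 was close to the highest Control line. RGS18, of the same family, was at 28.1, 62.2 and 71.3 CPM in the clones and at 33.2, 27.7 and 22.8 CPM in the Control lines, with clone 1 below line 1 (DESeq2 adjusted p = 0.045). ARRB2, the gene of beta-arrestin 2, was at 267 ± 26.3 CPM in the clones against 181 ± 28.0 CPM in the Control lines (DESeq2 log2 fold change 0.56, adjusted p = 0.0192). RGS14 was at 33.4 ± 1.95 CPM against 21.5 ± 3.46 CPM in the Control lines (DESeq2 log2 fold change 0.63, adjusted p = 0.0206). In edgeR the adjusted p was 0.209 for RGS18 and 0.171 for ARRB2 and RGS14. GRK2, the most abundant member and a kinase of activated receptors, was at 584 ± 35.1 CPM against 575 ± 17.1 CPM in the Control lines (edgeR adjusted p = 0.918).

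**Figure D4:**
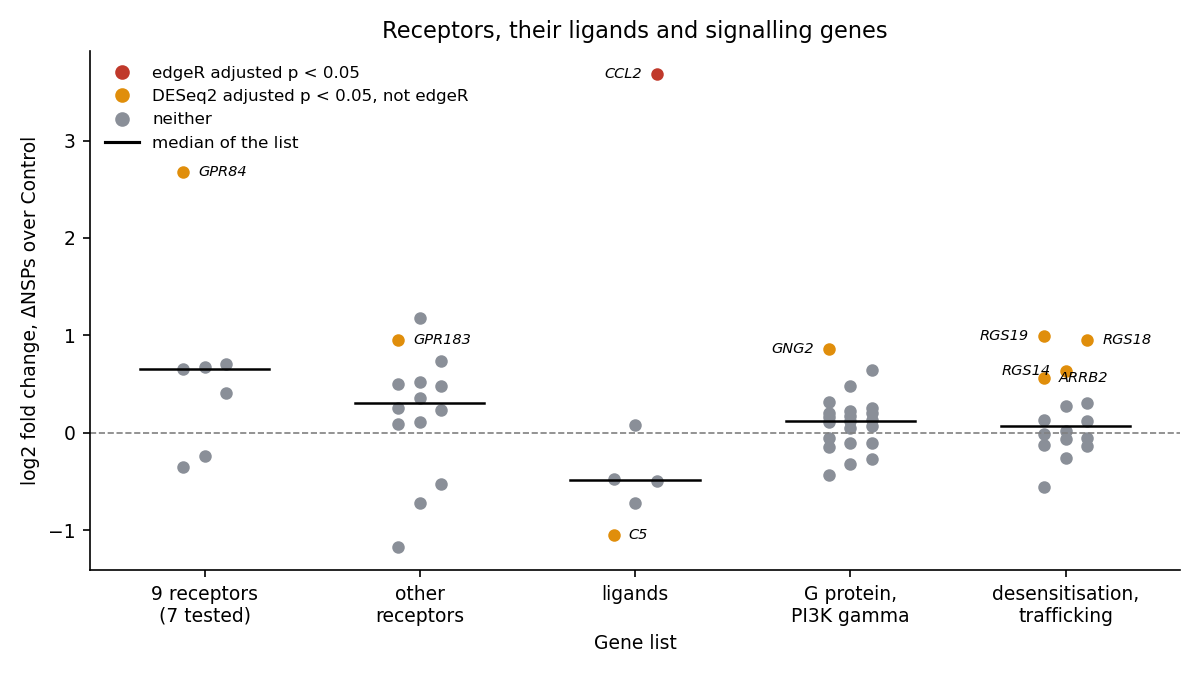
Log2 fold change of ΔNSPs over Control for each tested gene of 5 lists, with the list's median as a bar, red for an edgeR call, orange for a call in DESeq2 alone and grey for neither. CCL2 at 3.68 is the edgeR call, and the receptor GPR84 at 2.68 is among the genes called in DESeq2 alone.

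Markers of myeloid maturation and of other cell types were measured beside these results. Of 9 tested monocytic markers 0 passed in edgeR or DESeq2. At an unadjusted p under 0.05, 2 were higher, against 9.23% of all tested genes. They were the integrin chain ITGAM (8.49 ± 3.30 CPM in ΔNSPs clones, 3.97 ± 1.84 CPM in Control lines) and the receptor CSF1R (2.67 ± 1.62 CPM in the clones, 0.862 ± 0.665 CPM in the lines). Both had their highest level in clone 2, as did CD4 and LYZ, the latter at 95.5, 229 and 164 CPM in clones 1 to 3 against 109 to 116 CPM in the lines. CSF1R had 14, 56 and 33 counts in clones 1 to 3 and 19, 5 and 7 in Control lines 1 to 3. With lines 2 and 3 this low, CSF1R passed the filter on low counts through the clones, where it is high. The filter thus favoured its direction. SPI1 and CLEC12A were highest in clone 3, CD33 in clone 1, and FCGR1A and CSF2RA in Control line 3. CSF2RA was at 17.6, 11.6 and 9.77 CPM in clones 1 to 3 and at 13.5, 17.2 and 19.4 CPM in Control lines 1 to 3. Of the 9 tested markers, 6 had a positive and 3 a negative fold change. Mature neutrophil markers summed to 65.2 to 150 CPM in the clones and 75.8 to 125 CPM in the lines, most of it CSF3R, with LTF without a row. Of their 2 tested genes 1, CXCR2, was higher at an unadjusted p under 0.05, against 9.23% of all tested genes. T cell markers summed to 1.28 to 4.21 CPM in the clones and 0.596 to 0.724 CPM in the lines, and CD3D, CD3E and CD3G had no row. TRAC, the one tested, was at 1.14, 1.51 and 3.79 CPM in the clones and at 0.596, 0.507 and 0.347 CPM in the lines. These were 16, 20 and 45 counts in the clones and 7, 7 and 4 in the lines. TRAC passed the filter on low counts only through the clones, where it is high, so the filter favoured this direction. Its groups did not overlap, against 12.2% of all tested genes on the higher side (edgeR unadjusted p = 0.00573, adjusted p = 0.178). Without clone 1 it passed in edgeR (adjusted p = 0.0436), in a fit that called 6.17% of 15050 genes. B cell markers summed to 26.7 to 67.7 CPM in the clones and 46.9 to 85.4 CPM in the lines, with MS4A1 without a row. At an unadjusted p under 0.05, CD79A was higher (17.4 ± 5.49 CPM in the clones, 10.7 ± 2.26 CPM in the lines) and PAX5 lower (5.81 ± 3.74 CPM in the clones, 14.4 ± 5.31 CPM in the lines), against 9.23% and 8.6% of all tested genes. Erythroid and megakaryocyte markers summed to 88.2 to 116 CPM in the clones and 75.0 to 134 CPM in the lines, most of it HBB. Fibroblast and epithelial markers summed to 1.09 to 9.08 CPM in the clones and 6.13 to 6.24 CPM in the lines. Of either list 0 had an unadjusted p under 0.05, against 17.8% of all tested genes. No gene of these marker lists passed in edgeR, DESeq2 or limma voom with all 6 libraries. The part of any of these markers in the receptor values was not tested, and fewer cells with a transcript cannot be told apart from less of it per cell.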

How the data were processed

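RNA-seq read counts per gene were analysed for 3 ΔNSPs clones and 3 Control lines of U937, grouped by the sample labels, which give no batch or date. The authors deposited raw counts per Ensembl gene, without normalization. GRCh38.p12 is the build in the submitters' processing notes, which list HTSeq 0.11.1, HISAT2 2.0.0, FastQC and SAMtools 1.5.9. Whether counting used strand, and with which annotation, is not given in the sources used here, so overlapping genes on opposite strands are uncertain. Symbols, positions and exon lengths came from GENCODE 29 (18771 of 18798 identifiers matched).

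Groups were compared with edgeR 4.0.16 in R 4.3.3, using TMM factors, the filterByExpr filter, quasi-likelihood fits and Benjamini-Hochberg adjustment over 14797 genes, two-sided, called under 0.05. SE values derive from the fold change and the F statistic. DESeq2 1.42.0 and limma voom 3.58.1 were alternatives, and limma voom was run throughout with a quality weight for each library. Each tool was tested on simulated data with known fold changes. An exact permutation test of 3 against 3 cannot go below 0.1 and was not used. No pair of libraries of a group agreed within sampling noise (chi-square per degree of freedom at least 7.13). Floors of 3 counts cover counting error only.

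Named genes were all 9 receptors, from each list the edgeR calls or else the 3 tested genes with the largest ratio of fold change to SE and the most abundant, and the 2 genes most like each tested receptor. RGS18, CXCR5, the ligands other than CCL2 and the members of the marker lists were named beyond this rule, after their values were seen. Some marker genes that the rule picks are given within their list's sums. The receptors and lists were chosen with earlier results of these data known. Promoter sequences are from RefSeq (GRCh38.p14), with entries for all receptors but GPR84.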

Additional observations from a re-analysis of the deposited data

How the results depend on the processing

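For the 7 tested receptors, 83 of 89 fold changes under the alternatives kept their direction and gave no other call; DESeq2 gave no adjusted p for CX3CR1, C5AR1 and FPR1. The exceptions were GPR84, which passed in DESeq2 (log2 fold change 2.67), and single libraries left out: ranges were 2.14 to 3.14 for GPR84, which passed without ΔNSPs clone 1, -0.403 to 0.858 for CX3CR1, -0.572 to 1.18 for C5AR1 and -0.446 to 0.107 for FPR1. CX3CR1 and C5AR1 turned without ΔNSPs clone 2, and FPR1 without that clone (0.08) or without Control line 2. The number of receptors called, 0 in edgeR, was 1 in DESeq2 and 0 to 1 with a library left out. Over all genes, DESeq2 called 3.98% and edgeR without clone 1 called 6.17%.

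Among all tested genes, 3 passed in edgeR and 515 in DESeq2, and 0 to 928 with a library left out, the highest without ΔNSPs clone 1. DESeq2 called 1 other receptor, 2 ligands, 1 signalling gene and 4 desensitisation genes, against 3.98% of all genes. With a library left out, edgeR called 0 to 1 other receptors, 0 to 3 ligands, 0 to 3 signalling genes, 0 to 3 desensitisation genes, 0 to 1 monocytic markers and 0 to 1 T cell markers. Each highest value came without clone 1, in a fit that called 6.17% of 15050 genes, and the cause was not tested. The genes tested changed with the fit, and without clone 1 there were 8 tested ligands in place of 6. The 3 ligand calls included CCL23 (log2 fold change 4.02, edgeR adjusted p = 0.0302). It had 101 and 17 counts in clones 2 and 3 but 3 to 4 in the Control lines. CCL23 passed the filter through the clones, where it is high, so the filter favoured its direction, as for TRAC.

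With the replicate number as a block, 0 genes passed over all tested genes (1779 at an unadjusted p under 0.05), among them 0 ligands. The labels give both groups the numbers 1 to 3 and do not say whether same-numbered libraries belong together. Deviations from the group mean correlated negatively between same-numbered libraries (r = -0.432, -0.161 and -0.14). They also did so between clone 2 and Control line 3 (-0.182) and between clone 3 and Control line 2 (-0.143). With deviations taken within groups of 3, these values cannot decide whether same-numbered libraries share a culture or batch. Other size factors and other filters on low counts changed no receptor call. The values of CCR2, C5AR1 and FPR1 rest on 3 to 40 counts a library.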
